A study of Mus musculus with 6 samples.

Results

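The genes described here are 6 regulators of the switch from mitosis to meiosis in mouse germ cells: Stra8, Meiosin, Meioc, Ythdc2, Rbm46 and Dazl. They were taken by symbol from a count table of 50763 genes, and all 6 were found and passed the filter on low counts that left 18860 genes to test. Whole testes were collected on postnatal day 14 from 3 wild-type samples (WT) and from 3 samples of the genotype labelled sKO, in which Rif1 was conditionally knocked out in pre-meiotic germ cells. No treatment is named for either group, and the Cre driver, the deleted exons, the strain and any allele carried by both groups were not named in the sources used here. RIF1 is a DNA repair and replication timing factor. Nothing in the labels ties each sample to its own animal, and the spread behind every p-value may therefore be technical.

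Germ cells enter meiosis in response to retinoic acid, which switches on Stra8. STRA8 pairs with MEIOSIN, and the pair binds DNA and activates genes of meiotic prophase. MEIOC, the RNA helicase YTHDC2 and the RNA-binding protein RBM46 act together on mRNA, lowering transcripts of the mitotic programme such as that of cyclin A2, and germ cells without them start meiosis but return to a mitosis-like state. DAZL is a germ cell RNA-binding protein that makes germ cells competent to respond to the entry signal and supports the translation of its target mRNAs. In the first wave of spermatogenesis these steps take place before the age sampled here, and new cells keep passing through them, so a whole testis of this age holds spermatogonia, cells entering meiosis and spermatocytes together.

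The upstream sequences of Stra8 and Meiosin are shown because both genes answer to the entry signal and their mean levels were the closest of the 6 between the genotypes, while short windows of Rbm46 and Dazl are shown because they hold the same short motif as Meiosin. All come from RefSeq on GRCm38.p6, in which 5 of the 6 genes were matched, Meiosin as Bhmg1. Capitals mark AGGTCA, the half-site of retinoid receptors, in Stra8, and CNCCTCAG, the motif described for STRA8 binding, or its reverse complement, in the others. The first 2 sequences are the 250 bases before the RefSeq start of transcription, at chr6:34920698-34920947 on the plus strand and chr7:19118345-19118594 on the minus strand. In the GENCODE M21 annotation the Stra8 and Meioc genes begin farther upstream, at chr6:34920163 and chr11:102663716. Matches and positions given here hold for the RefSeq starts. The last 2 are windows of 30 bases, at chr3:82876481-82876510 and chr17:50293587-50293616, both on the minus strand.
Stra8: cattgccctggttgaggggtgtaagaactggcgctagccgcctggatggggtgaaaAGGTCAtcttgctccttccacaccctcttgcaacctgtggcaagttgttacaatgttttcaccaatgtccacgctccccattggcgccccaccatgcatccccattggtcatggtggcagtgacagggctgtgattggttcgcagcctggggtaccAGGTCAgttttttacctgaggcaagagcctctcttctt
Meiosin: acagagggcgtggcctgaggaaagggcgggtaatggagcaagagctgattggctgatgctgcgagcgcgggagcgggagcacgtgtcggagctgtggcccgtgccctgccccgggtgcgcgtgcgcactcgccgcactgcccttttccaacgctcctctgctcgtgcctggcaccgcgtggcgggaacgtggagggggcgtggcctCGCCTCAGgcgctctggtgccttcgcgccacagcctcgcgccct
Rbm46: ggcacgctaggCTGAGGCGaagagcccgtg
Dazl: cgcgcagcccaCGCCTCAGtgactcggcga

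Both strands were searched, and the 2 motifs share no overlapping match in these windows. Stra8 held 2 copies of AGGTCA, beginning at bases -194 and -38 counted from the RefSeq start, and none of the other 4 genes with a window held one. Over all 32851 RefSeq windows, from 250 bases before to 50 after a start, 16.3% held AGGTCA and 7.94% held CNCCTCAG. CNCCTCAG began at base -44 in Meiosin, at base -16 in Rbm46 on the reverse strand and at base 16 after the start in Dazl, while Stra8 and Meioc had no match in their windows. GCGGGAA, an E2F-type motif, was found in the windows of Meiosin and Meioc (4.60% of all windows), CACGTG, an E-box, in those of Meiosin and Rbm46 (7.15%), and CCAAT in all 5 (37.4%). A match describes letters in a window and is not a binding site measured here.

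The 6 libraries held between 15941672 and 18296594 counts. Rif1, the targeted gene, had 83.7 to 129 counts per 1000000 of the scaled library total (CPM) in WT libraries and 42.0 to 49.2 CPM in sKO libraries, so they matched their labels. In sKO it fell by 1.17 (log2; SE 0.15), with an edgeR adjusted p of 0.0145 that became 0.0522 with limma-voom and 0.137, 0.0618 and 0.120 when WT library 2 or sKO libraries 1 and 2 were left out in turn. A gene is referred to as called when its adjusted p from edgeR was under 0.05 over all 18860 genes. By that rule 1.30% of all genes were called, 1.27% lower and 0.0318% higher in sKO. When WT library 2, or either of sKO libraries 1 and 2, was left out, edgeR called 0 genes, while unadjusted p-values under 0.05 numbered 1662, 1410 and 1221 for lower and 1102, 431 and 503 for higher genes. WT library 1 and sKO library 3 lay farthest from the rest of their groups on the first principal component (scores -46.2 and 2.72, against -16.3 to -8.01 for the other WT and 28.2 to 39.7 for the other sKO libraries).

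**Figure D1:**
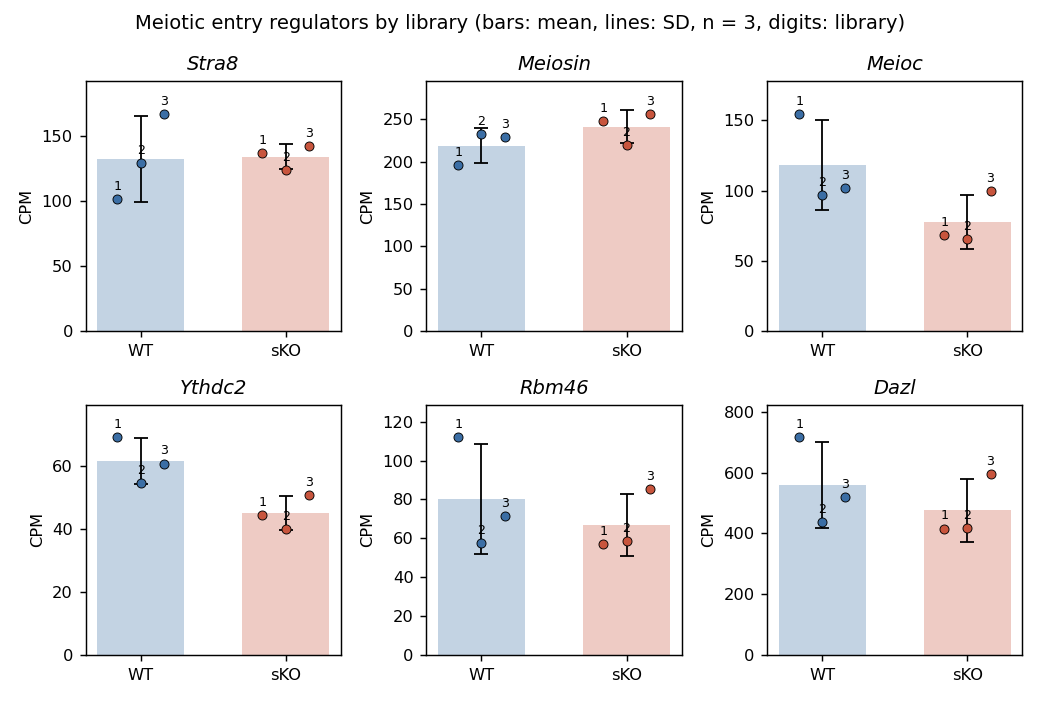
Level in CPM (y axis, from 0) of the 6 regulators in 3 WT and 3 sKO libraries, with points for libraries numbered by replicate, bars for means and lines for SD. Ythdc2 is the gene whose 3 sKO points all lie below its 3 WT points, while WT library 1 stands highest for Meioc, Ythdc2, Rbm46 and Dazl and lowest for Stra8 and Meiosin.

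None of the 6 regulators was called by edgeR. The DNA-binding partners Stra8 and Meiosin had mean levels in sKO at or slightly above WT, while the RNA-binding factors Meioc, Ythdc2, Rbm46 and Dazl had lower means. At an unadjusted p under 0.05, 2 of the 6 were lower (Ythdc2 and Meioc) and 0 were higher, where 8.54% and 5.06% of all genes were. DESeq2 called Meioc and Ythdc2 lower, as it did 721 of all 18860 genes, and limma-voom called 0 of the 6 and 0 of all genes. The median log2 fold change of the 6 was -0.24, against 0.032 over all genes tested.

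Stra8, the transcription regulator induced by retinoic acid, stood at 101, 129 and 167 CPM in WT libraries 1 to 3 and at 137, 124 and 142 CPM in sKO libraries 1 to 3. The sKO values lay inside the WT range. The means were 133 ± 33.0 CPM for WT and 134 ± 9.57 CPM for sKO (SD, n = 3 each), with a log2 fold change of 0.018 (SE 0.16, edgeR adjusted p = 0.975). The unadjusted 95% interval of the fold ran from 0.795 to 1.29 times the WT level. Changes in either direction within it were thus not excluded, and it is not a limit of detection. The sign of the Stra8 estimate turned without WT library 1 (-0.14, edgeR adjusted p = 0.742), sKO library 1 (-0.015) or sKO library 3 (-0.062).

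Meiosin, the partner of STRA8 on DNA, had 195, 232 and 229 CPM in the WT libraries and 248, 219 and 256 CPM in the sKO libraries. Only sKO library 2 fell inside the WT range, and the groups overlapped. The means were 219 ± 20.3 and 241 ± 19.5 CPM (SD, n = 3 each), and the log2 fold change was 0.14 (SE 0.10, edgeR adjusted p = 0.583), with a 95% interval from 0.944 to 1.29 times WT. Meiosin varied least within WT, with a coefficient of variation of 9.27%, against 24.9% for Stra8 and 35.1% for Rbm46.

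Meioc, which holds YTHDC2 in its complex and keeps meiotic cells from dividing early, stood at 155, 97.2 and 102 CPM in WT and at 68.2, 65.3 and 100.01 CPM in sKO. Libraries 1 and 2 of sKO were below every WT library, and sKO library 3 lay between WT libraries 2 and 3. The mean went from 118 ± 31.9 to 77.9 ± 19.2 CPM (SD, n = 3 each), the largest difference in fold among the 6 (log2 fold change -0.60, SE 0.22, edgeR adjusted p = 0.258; 95% interval 0.469 to 0.929 times WT). DESeq2 gave an adjusted p of 0.0441 for Meioc, and edgeR gave 0.0369 without sKO library 3 (log2 fold change -0.86) and 0.504 without WT library 1 (-0.35).

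Ythdc2, a helicase that reads methylated adenosine in RNA, stood at 68.9, 54.5 and 60.6 CPM in WT and at 44.3, 39.96 and 50.5 CPM in sKO. It was the only one of the 6 whose groups did not overlap, against 20.2% of all genes (10.7% lower and 9.58% higher). The means were 61.3 ± 7.24 and 44.9 ± 5.31 CPM (SD, n = 3 each), with a log2 fold change of -0.45 (SE 0.12, edgeR adjusted p = 0.118; 95% interval 0.606 to 0.886 times WT). The two-sided exact permutation p over the 6 libraries was 0.1, below which 3 against 3 cannot go. DESeq2 gave an adjusted p of 0.0327, and edgeR gave 0.0360 without sKO library 3 (log2 fold change -0.58). Without WT library 1, sKO library 1 or sKO library 2, in that order, edgeR gave 0.314, 0.295 and 0.459 for Ythdc2 (-0.36, -0.46 and -0.37).

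Rbm46, the RNA-binding partner of MEIOC and YTHDC2, was the most variable of the 6 in WT, with 112, 57.7 and 71.3 CPM in WT and 57.2, 58.5 and 85.5 CPM in sKO. WT library 1 stood far above the other WT libraries. The sKO libraries ran from just below the lowest WT library to a level between WT libraries 3 and 1. The means were 80.3 ± 28.2 and 67.1 ± 15.97 CPM (SD, n = 3 each), giving -0.26 for the log2 fold change (SE 0.26, edgeR adjusted p = 0.720). Without WT library 1 the Rbm46 estimate was 0.058.

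Dazl, the most abundant of the 6, stood at 716, 439 and 521 CPM in WT and at 416, 417 and 595 CPM in sKO. WT library 1 and sKO library 3 were the highest of their groups, as for Rbm46. The means were 558 ± 142 and 476 ± 103 CPM (SD, n = 3 each), with a log2 fold change of -0.23 (SE 0.20, edgeR adjusted p = 0.659) and a 95% interval from 0.628 to 1.16 times WT. Without WT library 1 the Dazl estimate was -0.010. For the 6 regulators the lowest count in any library was 660 (Ythdc2), for which counting error alone gives a coefficient of variation of 3.89%, below the 7.13% to 35.1% seen between libraries of a group.

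**Figure D2:**
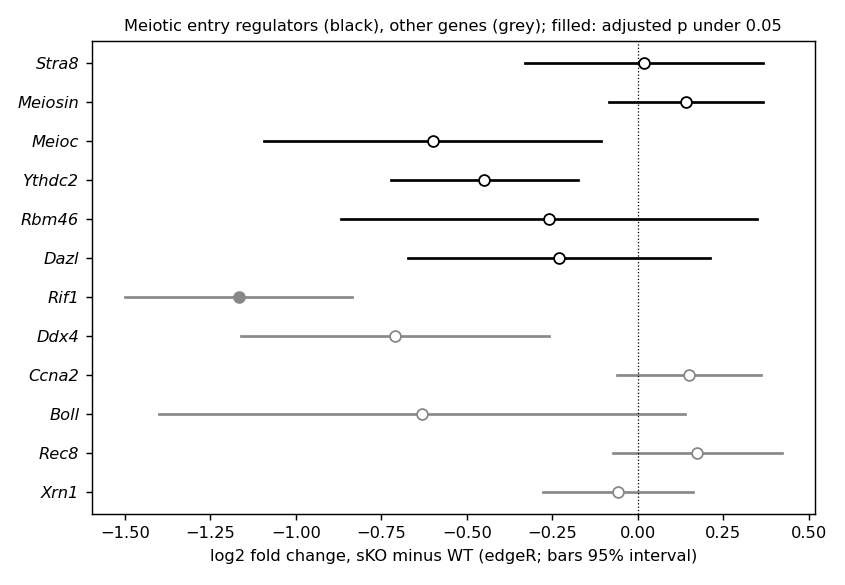
Log2 fold change of sKO minus WT (x axis) from edgeR with 95% intervals, for the 6 regulators in black and 6 other genes in grey. Filled points passed an adjusted p of 0.05, which Rif1 alone did, and among the 6 regulators the unadjusted intervals of Meioc and Ythdc2 lie wholly below 0, as does that of Ddx4.

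Levels of different genes were compared as CPM per kilobase of merged coding-transcript exons (GENCODE M21, GRCm38). In WT the order was Dazl at 183 ± 46.6, Meiosin at 116 ± 10.7, Stra8 at 73.6 ± 18.3, Rbm46 at 32.1 ± 11.3, Meioc at 25.6 ± 6.91 and Ythdc2 at 8.50 ± 1.003 CPM per kilobase (SD, n = 3). Rbm46 and Meioc overlapped in WT (23.1 to 44.8 and 21.1 to 33.5 CPM per kilobase), and the other neighbours in this order did not. In sKO the order of the 6 means was the same, with Dazl at 156 ± 33.8 and Ythdc2 at 6.23 ± 0.736 CPM per kilobase, and there Rbm46 (22.9 to 34.2) and Meioc (14.2 to 21.7) did not overlap. Per length, the pair that acts on DNA was thus above the complex that acts on RNA in both genotypes.

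Library by library, the 6 genes followed 2 patterns, given here as a description over 6 libraries that share their group structure. Rbm46 and Dazl moved almost in step (Pearson r of log2 CPM 0.993 over 6 libraries), Meioc and Ythdc2 had r = 0.951, and Meioc and Dazl had r = 0.903. Stra8 and Meiosin had r = 0.697 with each other, and r between -0.537 and -0.179 with each of the other 4. Relative to the WT mean, WT library 1 stood at 0.42 (log2) for Meioc and 0.53 for Rbm46, and at -0.36 for Stra8 and -0.16 for Meiosin. In sKO library 3 all 6 regulators were the highest of their group, at -0.21 for Meioc, 0.15 for Rbm46, 0.13 for Stra8 and 0.23 for Meiosin.

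Of 2 marker lists of germ cell stages, the pachytene list had the same highest library in each group as the 4 RNA-binding factors. The spermatogonia list did not. Pachytene spermatocyte markers had medians, against the WT average, of 0.61, -0.14 and -0.44 (log2) in WT and -1.81, -1.61 and -1.08 in sKO, in replicate order. WT library 1 thus held the most of its group, as for the 4 RNA-binding factors. In sKO, library 3 held the most, as for all 6 regulators. The lowest WT library was 3 for the pachytene list and 2 for the 4 RNA-binding factors. The same highest libraries were seen in lists, described below, that mark no cell stage. Medians of the adenosine methylation and decay list were 0.11, -0.12 and 0.0016 in WT and -0.063, -0.061 and 0.091 in sKO. Those of the Polycomb list were 0.059, -0.099 and 0.0020 in WT and -0.019, -0.020 and 0.048 in sKO. The spermatogonia median was -0.11, 0.10 and -0.0023 in WT and 0.094, 0.15 and 0.10 in sKO. WT library 1 was there the lowest of its group, as for Stra8 and Meiosin, and sKO library 2 the highest of its group. In a whole testis, fewer cells of a type and less RNA per cell cannot be told apart, and the part of cell composition in the levels of the 6 regulators was not tested.

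**Figure D3:**
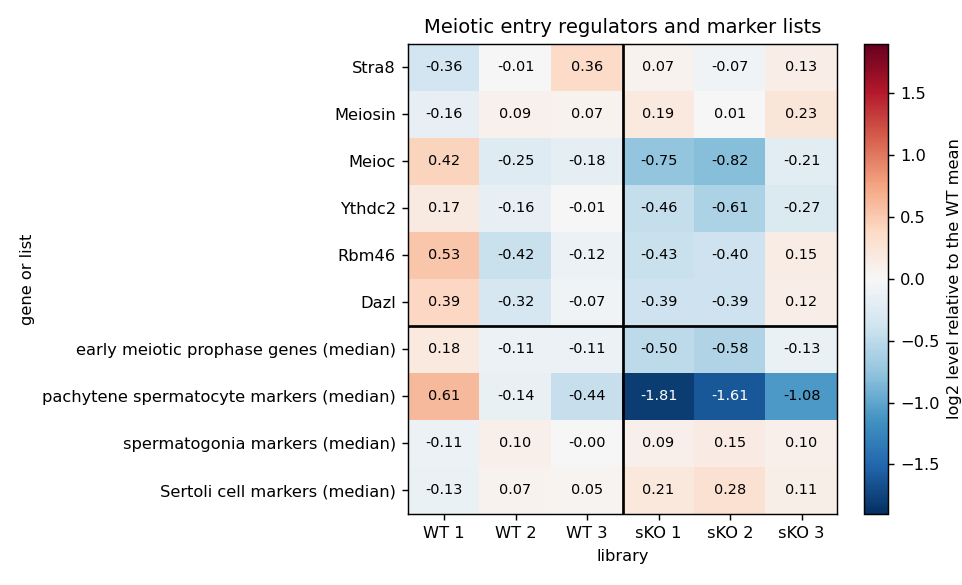
Log2 level relative to the WT mean (colour and digits) for the 6 regulators and for the medians of 4 marker lists (rows) in each library (columns). WT library 1 is above 0 for Meioc, Ythdc2, Rbm46, Dazl and the spermatocyte lists. It is below 0 for Stra8, Meiosin and the spermatogonia and Sertoli lists. The pachytene median is -1.08 or lower in all 3 sKO libraries.

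Ratios of 2 genes within a library do not depend on library scaling. Log2 Stra8/Meiosin was -0.95, -0.84 and -0.45 in WT and -0.86, -0.83 and -0.85 in sKO. The difference was -0.098 (exact two-sided permutation p = 0.8, adjusted over 6 ratios 0.8), and its sign turned without WT library 3 (0.050). Meioc/Ythdc2 differed by -0.15 (exact permutation p = 0.5), and Ythdc2/Rbm46 differed by -0.22 (exact permutation p = 0.4); both overlapped between groups.

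Of the 3 ratios tested among Meioc, Ythdc2 and Rbm46, the groups did not overlap for Meioc/Rbm46. It stood at 0.47, 0.75 and 0.52 (log2) in WT and at 0.25, 0.16 and 0.23 in sKO, with Meioc lower relative to Rbm46 in every sKO library. The difference was -0.37 (exact two-sided permutation p = 0.1, the smallest this design allows; 0.3 adjusted over 6 ratios). Leaving out each library in turn gave differences from -0.42 to -0.28. The next ratios were chosen after their values were seen and carry no test. Log2 Meioc/Dazl was -2.21, -2.17 and -2.35 in WT and -2.61, -2.68 and -2.57 in sKO, again with Meioc lower in every sKO library. Ythdc2/Meiosin was -1.50 to -2.09 in WT and -2.34 to -2.48 in sKO, and Meioc/Meiosin was -0.34 to -1.25 in WT and -1.36 to -1.86 in sKO, so neither overlapped. Ythdc2/Stra8 did not overlap either (-1.46 to -0.56 in WT and -1.63 to -1.49 in sKO), while Meioc/Stra8 did (-0.71 to 0.61 in WT and -1.002 to -0.51 in sKO).

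Ddx4, the germ cell RNA helicase used as a general germ cell marker, was itself at 458, 292 and 276 CPM in WT and at 190, 187 and 250 CPM in sKO. Its 3 sKO libraries were all below its WT libraries, as for 10.7% of all genes (log2 fold change -0.71, SE 0.20, edgeR adjusted p = 0.143). Against it, Dazl was higher in every sKO library: log2 Dazl/Ddx4 was 0.64, 0.59 and 0.91 in WT and 1.13, 1.16 and 1.25 in sKO, a difference of 0.46 (exact two-sided permutation p = 0.1, 0.3 adjusted over 6 ratios). Stra8/Ddx4 was -2.18, -1.18 and -0.72 in WT and -0.48, -0.60 and -0.82 in sKO, with a difference of 0.73 (exact permutation p = 0.2, 0.4 adjusted). With Ddx4 in place of the library total, the differences of the other 4 genes were 0.83 for Meiosin, 0.089 for Meioc, 0.24 for Ythdc2 and 0.46 for Rbm46. As for Dazl, the groups did not overlap for Meiosin and Rbm46 (exact two-sided permutation p = 0.1 each, 0.2 adjusted over the ratios of the 6 genes to Ddx4). They overlapped for Meioc and Ythdc2. Dividing by Ddx4 raises every gene by about the size of the Ddx4 difference itself, so these values place the 6 genes relative to Ddx4 and do not bear on the direction of any one of them.

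**Figure D4:**
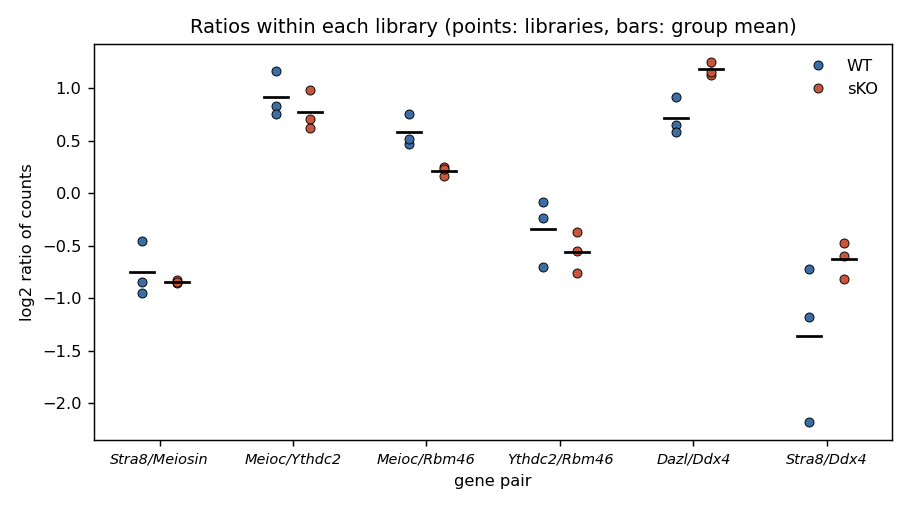
Log2 ratio of counts (y axis) within each library for 6 gene pairs (x axis), with points for libraries and bars for group means. The WT and sKO points do not overlap for Meioc/Rbm46 and Dazl/Ddx4, and the 3 sKO points of Stra8/Meiosin lie between -0.86 and -0.83.

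Genes upstream of the 6 regulators showed no called change. In a list of 20 retinoid and transcription regulators acting on meiotic entry, 18 were tested and 0 were called by edgeR, DESeq2 or limma-voom. At an unadjusted edgeR p under 0.05, 1 was lower and 1 higher, where 8.54% and 5.06% of all genes were. The median log2 fold change was 0.12. Rdh10, which makes the precursor of retinoic acid, averaged 28.8 ± 0.879 CPM in the WT libraries and 36.3 ± 2.95 CPM in the sKO libraries (SD, n = 3 each), with an edgeR adjusted p of 0.190. Dmrtb1, a repressor of spermatogonial genes at the mitosis to meiosis transition, had a log2 fold change of -0.32 (edgeR adjusted p = 0.359), and Dmrt1, which restrains entry in spermatogonia, had 0.19 (edgeR adjusted p = 0.437). Aldh1a3, a retinoic acid synthesising enzyme, had 0.34 (edgeR adjusted p = 0.477).

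In a list of 12 genes of the Polycomb complex that holds MGA and silences meiotic genes in mitotic cells, edgeR called 0. The median was 0.00078. At an unadjusted p under 0.05, 2 genes of this complex were lower and 0 higher, where 8.54% and 5.06% of all genes were. Pcgf6, its defining ring-finger subunit, stood at 95.4, 57.3 and 52.9 CPM in WT and at 36.2, 39.8 and 51.0 CPM in sKO (log2 fold change -0.69, edgeR adjusted p = 0.211). Every sKO library was below every WT library, as for 10.7% of all genes. In this list the groups did not overlap for 1 lower gene (Pcgf6) and 1 higher gene (E2f6). L3mbtl2 had a log2 fold change of -0.29 (edgeR adjusted p = 0.274) and E2f6, the DNA-binding subunit, had 0.22 (edgeR adjusted p = 0.386). Ring1, an E3 ligase of the complex, had -0.21 (edgeR adjusted p = 0.598). DESeq2 called 1 member of this list lower, against 721 of all genes, and limma-voom 0.

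Downstream, 4 early meiotic prophase genes fell. Of 36 genes in the list, 35 were tested and 32 were estimated lower, where 8437 of all 18860 genes were. By edgeR 4 were called lower (11.4%, against 1.27% of all genes) and 0 higher, and the median log2 fold change was -0.48. The 4 were Kash5, which links meiotic telomeres to motors, Spo11, which makes the meiotic breaks, Psmc3ip, a helper of the recombinases, and Majin, which anchors telomeres to the nuclear envelope. Their log2 fold changes were -1.04, -0.99, -0.89 and -0.72. DESeq2 called 11, where it called 721 of all genes lower, and limma-voom 0. With edgeR, 2 were called without WT library 1 and 12 without sKO library 3, where 101 and 624 of all genes were called lower. It called 0 when WT library 2 or either of sKO libraries 1 and 2 was left out.

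Rec8, a meiotic cohesin induced at entry, stood at 48.0, 62.6 and 56.8 CPM in WT and at 62.9, 61.8 and 64.2 CPM in sKO (log2 fold change 0.17, SE 0.11, edgeR adjusted p = 0.538). It was among the 3 genes of the list with a higher estimate, with Prdm9, the methyltransferase that places meiotic breaks (0.057, edgeR adjusted p = 0.854), and the cohesin Rad21l (0.058, edgeR adjusted p = 0.910). These 3, named for their sign, were chosen after their values were seen. The list's summed level ran from 2811 to 3954 CPM in WT and from 2099 to 3037 CPM in sKO, so the groups overlapped.

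MEIOC and YTHDC2 act against transcripts of the mitotic cell cycle. Ccna2, the cyclin A2 gene and the best known target of the complex, stood at 70.4, 62.0 and 65.4 CPM in WT and at 74.2, 69.4 and 76.0 CPM in sKO. One sKO library lay inside the WT range (log2 fold change 0.15, SE 0.095, edgeR adjusted p = 0.533; 95% interval 0.960 to 1.28 times WT). Of 25 genes in the list 22 were estimated lower, where 8437 of all 18860 genes were, and the list median was -0.21 (log2). By edgeR 1 was called lower (4%, against 1.27% of all genes), Cdc20, which activates anaphase. Its log2 fold change was -0.64 (SE 0.11, edgeR adjusted p = 0.0314). Cdc20 was not called when WT library 1, WT library 2, sKO library 1 or sKO library 2 was left out. Ccnb2 (log2 fold change -0.51, edgeR adjusted p = 0.0510), Aurka (-0.46, edgeR adjusted p = 0.160) and Top2a (-0.30, edgeR adjusted p = 0.226) were next by p.

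In a list of 22 genes of adenosine methylation, its readers and mRNA decay, 0 were called by edgeR, DESeq2 or limma-voom. By unadjusted edgeR p under 0.05, 2 were lower and 0 higher, where 8.54% and 5.06% of all genes were. The median was -0.0061. Xrn1, the exonuclease that binds YTHDC2, averaged 67.4 ± 5.14 CPM over WT and 64.7 ± 3.50 CPM over sKO libraries (SD, n = 3 each), with a 95% interval from 0.825 to 1.12 times WT. Cnot1, the scaffold of the deadenylase complex, had a log2 fold change of -0.26 (edgeR adjusted p = 0.239), Upf1, a decay helicase, had -0.30 (edgeR adjusted p = 0.327), and the methyltransferase cofactor Cbll1 and the demethylase Alkbh5 had -0.28 and -0.16 (edgeR adjusted p = 0.483 and 0.554).

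Relatives of DAZL and other germ cell RNA-binding proteins gave 0 called of 19 tested by edgeR. At an unadjusted p under 0.05, 6 were lower and 1 higher, where 8.54% and 5.06% of all genes were. The median was -0.092. DESeq2 called 4 lower, where it called 721 of all genes lower, and limma-voom 0. Boll, the family member that follows DAZL in spermatocytes, stood at 100.3, 49.0 and 57.8 CPM in WT and at 35.9, 36.9 and 60.9 CPM in sKO, with overlapping groups (log2 fold change -0.63, SE 0.32, edgeR adjusted p = 0.464). Relative to Dazl, Boll was lower in every sKO library, with log2 Boll/Dazl from -3.17 to -2.84 in WT and from -3.53 to -3.29 in sKO, a pair chosen after its values were seen and not tested. The germ granule proteins Tdrd1 and Mael had log2 fold changes of -0.71 and -0.50 (edgeR adjusted p = 0.0674 and 0.134), and Msi2, an RNA-binding protein of spermatogonia, had 0.29 (edgeR adjusted p = 0.165).

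**Figure D5:**
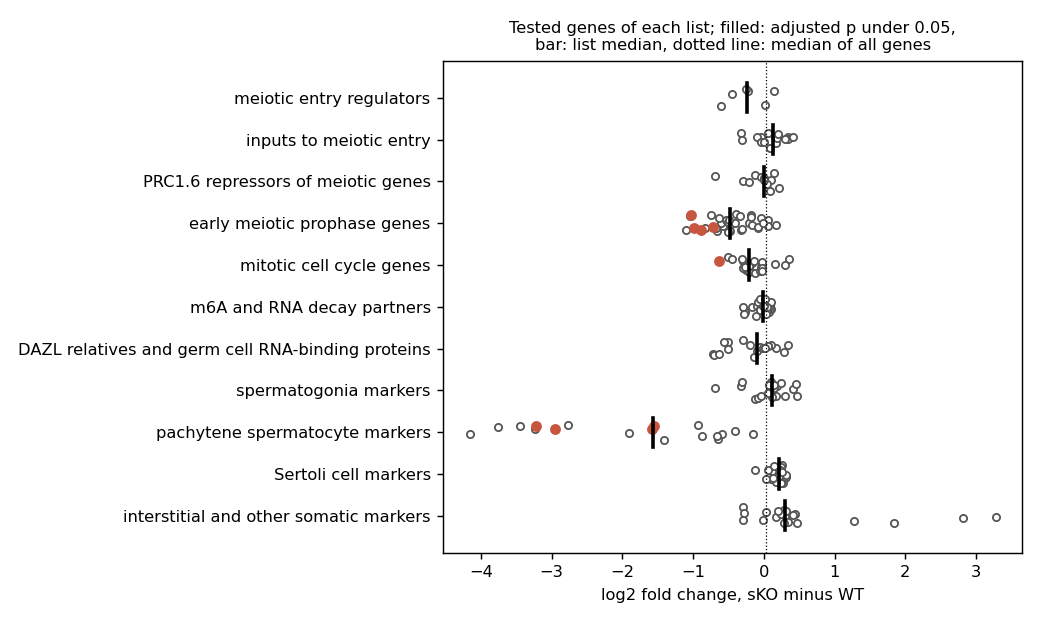
Log2 fold change of sKO minus WT (x axis) for each tested gene of 11 lists (rows), with filled points for adjusted p under 0.05, black bars for list medians and a dotted line for the median of all genes. Called genes are seen among early meiotic prophase, mitotic and pachytene genes, and the 6 regulators lie between -0.60 and 0.14.

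Markers of the cells that surround the entry step were set beside these values. Pachytene spermatocyte markers, with 20 genes in the list and 18 tested, had 4 called lower (Acr, Tekt1, Nme5 and Ybx2; 22.2%, against 1.27% of all genes) and a median of -1.56. DESeq2 called 11 of them, against 721 of all genes called lower, and limma-voom 0. With edgeR, 3 were called without WT library 1, 8 without WT library 3 and 9 without sKO library 3. In those fits 101, 502 and 624 of all genes were called lower. Of these markers 0 were called when WT library 2, sKO library 1 or sKO library 2 was omitted. Their summed level was 1221 to 2376 CPM in WT and 561 to 970 CPM in sKO. Spermatogonia markers, 20 tested, had 0 called by edgeR and a median of 0.11. At an unadjusted p under 0.05, 2 were lower and 2 higher, where 8.54% and 5.06% of all genes were. Their summed level was 865 to 992 CPM in WT and 965 to 999 CPM in sKO. DESeq2 called 1 spermatogonia marker lower, against 721 of all 18860 genes, and limma-voom 0. Dmrtb1 is also in this list, and Id4, of stem spermatogonia, differed by -0.69 (log2, edgeR adjusted p = 0.200), and Bcl6b and the receptor gene Ret had 0.46 and 0.30 (edgeR adjusted p = 0.263 and 0.289). Sertoli cell markers had 0 called of 20 by edgeR and a median of 0.21. At an unadjusted p under 0.05, 0 were lower and 7 higher, where 8.54% and 5.06% of all genes were. Their summed level was 5797 to 6832 CPM in WT and 6992 to 8390 CPM in sKO. The smallest p-values of this list were those of Wt1, Sox9, Gata4 and Clu (0.26, 0.26, 0.30 and 0.31, edgeR adjusted p from 0.181 to 0.289). Interstitial and other somatic markers had 0 called of 20, and summed to 1112 to 1433 CPM in WT and 1347 to 2011 CPM in sKO. At an unadjusted p under 0.05, 0 of these markers were lower and 2 higher, where 8.54% and 5.06% of all genes were. Their smallest p-values were those of the Leydig cell genes Cyp17a1 and Star, of Myh11 and of Csf1r (1.83, 1.27, 0.29 and 0.44, edgeR adjusted p from 0.249 to 0.450). DESeq2 and limma-voom called 0 Sertoli or interstitial markers. Of the tested markers, the epididymal genes Crisp1 and Adam7 alone were at 0 in some library (sKO library 3), and both were highest in sKO library 1. Crisp1 stood at 0.280, 10.7 and 2.55 CPM in WT and at 89.7, 5.39 and 0 CPM in sKO, and Adam7 at 0.168, 0.943 and 0.435 CPM in WT and at 13.2, 2.06 and 0 CPM in sKO. Adam7 had the highest log2 fold change of all genes tested (3.28, edgeR adjusted p = 0.492); both genes were chosen after their values were seen. Without sKO library 1 the estimates were -0.015 for Stra8, 0.10 for Meiosin, -0.53 for Meioc, -0.46 for Ythdc2, -0.17 for Rbm46 and -0.16 for Dazl.

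The genes whose profile over the 6 libraries was nearest to each regulator, by the root mean square (RMS) difference of log2 CPM centred on the gene's mean, were taken from 12072 other genes averaging 5 CPM or more. Strbp and Cfap36 were nearest to Meioc (RMS 0.049 and 0.051), and Cep295 and Zfp37 to Ythdc2 (0.037 and 0.047). Dr1 was among the nearest to both Dazl (RMS 0.025) and Rbm46 (0.059), with Mphosph8 (0.032) and Bcap29 (0.054) as the others. Kctd10 and Ppfia4 were nearest to Meiosin (RMS 0.033 and 0.037), and Afap1l1 and Tcea3 to Stra8 (0.066 and 0.082). Stra8 had the least close neighbours of the 6.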

How the data were processed

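Poly(A) RNA of whole testis was sequenced, with 3 WT and 3 sKO samples. The values are raw counts per gene symbol deposited by the authors in 1 table; per the submitters' processing notes Trim Galore, HISAT2 and featureCounts were used with build mm39. Versions, annotation release, strand setting and treatment of multiply mapped reads were not named in the sources used here, so reads of overlapping or near-identical genes cannot be told apart. Columns named con and scKO were read as WT and sKO and matched by replicate number.

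Counts were filtered with filterByExpr, scaled with TMM factors and tested with edgeR 4.0.16 (robust quasi-likelihood F test, R 4.3.3), with Benjamini-Hochberg adjustment over 18860 genes. CPM use the scaled library totals, SE is the log2 fold change divided by the root of F, and intervals are 95%. DESeq2 1.42.0, limma-voom 3.58.1, other scaling factors, no filter, a replicate block and leaving out libraries were alternatives, and the edgeR, DESeq2 and limma-voom fits were tested on simulated data. Ratios used counts plus 0.5. The members and lists were chosen with earlier results of these data known. Genes named beside the 6 regulators are Rif1, up to 4 genes of smallest p in each list and all called genes where these were fewer than 9, Ccna2, Ddx4, Boll, Rec8 and Xrn1, and the 2 nearest profiles of each regulator; Prdm9, Rad21l, Crisp1 and Adam7 fall outside this rule and were chosen after their values were seen. Depth was similar in all libraries, and 3 counts equal 0.165 to 0.187 CPM, for counting error only. Within a group no library was a duplicate of another: chi-square over degrees of freedom was 4.45 to 20.2 for these pairs. Pairs across the groups were not compared in this way. No GENCODE M21 gene overlapped the 6 regulators.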

Additional observations from a re-analysis of the deposited data

How the results depend on the processing

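The 6 regulators were not called by edgeR with other scaling factors, with limma-voom or with the replicate block. Meioc and Ythdc2 were called lower with DESeq2 (log2 fold changes -0.62 and -0.46), without the low-count filter (-0.60 and -0.45), without sKO library 3, and without WT library 1 and sKO library 3 together (-0.60 and -0.47), an alternative chosen after seeing the data; the cause was not tested. Leaving out each library in turn gave -0.86 to -0.35 for Meioc and -0.58 to -0.36 for Ythdc2, both on the same side of 0 throughout. The sign of Stra8 (-0.14 to 0.22) and of Rbm46 (-0.51 to 0.058) turned among those fits, and without WT library 1 and sKO library 3 together Stra8 was -0.21 and Meiosin -0.0047. As ratios to Ddx4 within the library Meioc, Ythdc2, Rbm46 and Dazl were 0.089, 0.24, 0.46 and 0.46, which adds the difference of Ddx4 itself to every gene alike and says nothing about their own direction. The Stra8/Meiosin difference ran from -0.20 to 0.050 when each library was left out.

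Counts of called genes depended on the tool and on single libraries. Lower genes numbered 240 in edgeR, 721 in DESeq2, 0 in limma-voom (1598 at an unadjusted p under 0.05), 992 without the filter, 21 with the replicate block, 691 without WT library 1 and sKO library 3, and 0 to 624 when each library was left out. Higher genes numbered 6, and 56, 0, 154, 0, 55 and 0 to 31 in the same order. Early meiotic prophase genes called lower numbered 4, and 11, 0, 13, 0, 18 and 0 to 12. Mitotic genes called lower numbered 1, and 2, 0, 3, 0, 2 and 0 to 2, with 2 under RLE or upper-quartile factors. Rif1 was -1.14 with limma-voom and -1.30 to -0.97 with each library left out. Same-numbered samples did not deviate together (correlations -0.403, 0.177 and -0.347), so the replicate block describes shared numbers alone; under it Meioc and Ythdc2 were -0.59 and -0.45.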
